A study of Mus with 18 samples.

Results

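Endothelial cells line every blood vessel of skeletal muscle, and the 10 genes described here are 9 that mark their identity or signalling (Pecam1, Cdh5, Esam, Kdr, Flt1, Tie1, Tek, Eng and Vwf) together with Vegfa, the growth factor to which they respond. They were taken by symbol from the expression files of a mouse study of skeletal muscle inflammation, and all 10 were found among 21401 gene symbols. RNA was sequenced from gastrocnemius, a calf muscle, and from C2C12, a mouse myoblast line, with 3 libraries in each of 3 groups per experiment, 18 in all. The study asked whether moringa isothiocyanate-1 (MIC-1), a sulfur compound from moringa seeds, counteracts the response to lipopolysaccharide (LPS), the bacterial endotoxin. The muscle came from wild type male C57BL/6 mice, whose age is not given in the sources used here. Control mice had a saline vehicle by the labels and oral 10% DMSO by the study's text, LPS mice had LPS at 10 mg/kg into the peritoneum, and LPS-MIC-1 mice had oral MIC-1 at 80 mg/kg on each of 3 days followed by the same LPS, with muscle taken 16 h after LPS. The cells were labelled as vehicle control, LPS at 1 μg/mL, or LPS with MIC-1 at 10 μM by the labels, for 24 h, while the study's text names a lower dose of MIC-1 for the sequenced cells. No group analysed here had MIC-1 without LPS, and nothing in the labels says that libraries came from separate cultures, so a p-value measures the spread between these libraries.

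In adult muscle, fibres release much of the VEGF-A, which binds 2 receptor tyrosine kinases on the neighbouring capillaries. Kdr (VEGFR2) carries most of the signal for endothelial survival, permeability and growth, and Flt1 (VEGFR1) binds the ligand tightly and limits what reaches Kdr. Cdh5 (VE-cadherin), Pecam1 (CD31) and Esam hold neighbouring endothelial cells together, Tek (Tie2) and its partner Tie1 receive the angiopoietins, Eng (endoglin) is a co-receptor for ligands of the BMP and TGF-β family, and Vwf is the clotting protein that endothelial cells store.

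Levels are in FPKM, reads scaled to the length of the transcript and the size of the library, on which different genes can be compared. Differences are log2 fold changes of FPKM + 0.1 from limma, with p-values adjusted by Benjamini-Hochberg over all 9475 genes with a mean FPKM over 1 in muscle. A gene passed with an adjusted p under 0.05 in muscle, and it was called when its change was also over 2-fold. The 3 comparisons of an experiment share libraries, so each library group enters 2 of them.

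The muscle libraries carried their labelled tissue. All 9 muscle fibre markers were expressed, with a median between 9211 and 11211 FPKM, and 19 of 25 further endothelial markers had a mean over 1 FPKM, while Erg, an endothelial transcription factor, was listed at 0 in all 9 libraries. LPS-MIC-1 replicate 3 stood apart in macrophage and leukocyte genes, which summed to between 9.19 and 11.5 FPKM in control, 11.9 and 12.6 in LPS and 18.1 and 123 in LPS-MIC-1. Lyz2, the macrophage lysozyme, read 5.27 and 3.93 FPKM in the LPS-MIC-1 replicates 1 and 2 and 78.3 in replicate 3. Acute-phase genes, chosen after their values were seen, were low in the libraries labelled LPS and high in those labelled LPS-MIC-1: Lcn2 had means of 0.516, 0.972 and 1248 FPKM and Saa3 of 0, 1.03 and 511 for control, LPS and LPS-MIC-1. Every direction below is therefore that of the libraries as labelled. Without LPS-MIC-1 replicate 3 the same 8 members were tested and the members' counts were as given below. Relative depth, read from the spacing of low FPKM values, was between 0.984 and 1.12 of control replicate 1. Muscle is a mixture of cells, so a lower level of an endothelial gene from fewer endothelial cells and one from less RNA per cell cannot be told apart.

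Vegfa was the most abundant of the 10 genes in every group of muscle and had the smallest standard error of the 8 tested members. Its level was 101, 98.4 and 94.6 FPKM in the control libraries, 85.4, 83.3 and 82.5 in LPS and 33.2, 33.1 and 32.2 in LPS-MIC-1. The 3 groups did not overlap, and LPS-MIC-1 lay far below the others. The mean was 97.9 ± 3.05 FPKM (SD, n = 3) in control, fell by 14.5% to 83.8 ± 1.504 with LPS, and fell by 60.8% from there to 32.8 ± 0.546 with LPS-MIC-1. On the log2 scale the step from control to LPS was -0.22 (SE 0.0335, limma adjusted p = 0.00306) and that from LPS to LPS-MIC-1 was -1.35 (SE 0.0335, limma adjusted p = 1.36e-08).

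**Figure D1:**
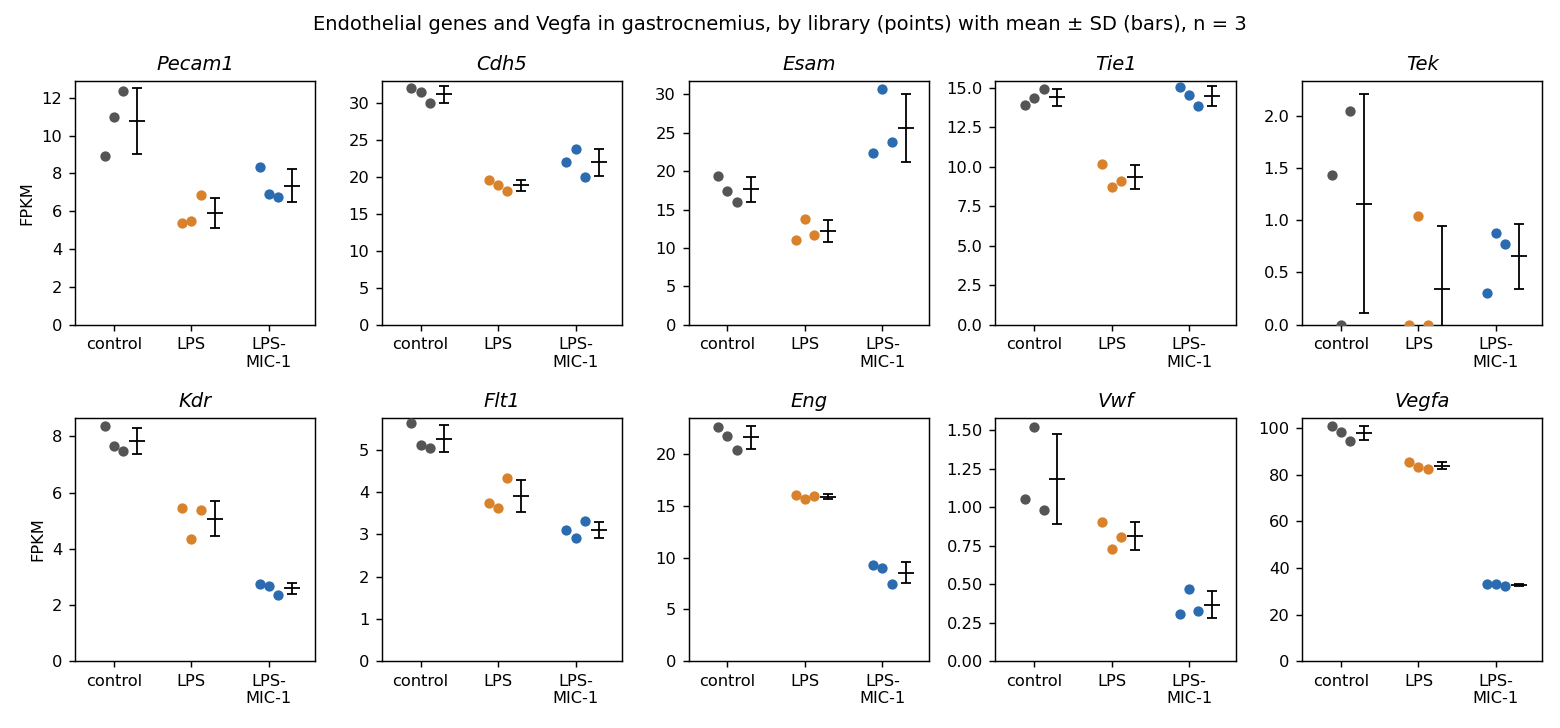
Level of each of the 10 genes in gastrocnemius in FPKM (vertical axis, from 0) for control, LPS and LPS-MIC-1. Points are libraries and bars beside them are the mean ± SD of 3; Vegfa, Kdr, Eng and Vwf step down from control to LPS to LPS-MIC-1, while Tie1 and Esam are lowest in LPS.

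Kdr, the main signalling receptor for VEGF-A, followed the same order as its ligand. It read 8.37, 7.65 and 7.49 FPKM in control, 5.47, 4.36 and 5.38 in LPS and 2.74, 2.69 and 2.35 in LPS-MIC-1, with no overlap between groups. Kdr fell by 0.62 on the log2 scale with LPS (SE 0.107, limma adjusted p = 0.00596) and by a further 0.94 in LPS-MIC-1 (adjusted p = 0.000115). Flt1, the other VEGF-A receptor, read 5.62, 5.11 and 5.05 FPKM in control, 3.75, 3.63 and 4.32 in LPS and 3.10, 2.92 and 3.31 in LPS-MIC-1. Its groups did not overlap either, but its steps were smaller, at -0.42 for LPS (SE 0.0924, limma adjusted p = 0.0175) and -0.32 for LPS-MIC-1 against LPS (adjusted p = 0.0185). Both Flt1 results depended on single libraries: the LPS step no longer passed without control replicate 1, LPS replicate 1 or LPS replicate 2 (limma adjusted p = 0.0611, 0.0624 and 0.0612), nor the LPS-MIC-1 step without LPS replicate 3 or LPS-MIC-1 replicate 2 (adjusted p = 0.0619 and 0.0608).

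The balance of the receptors shifted as Kdr went down more than Flt1. The ratio of Kdr to Flt1 within a library was 1.49 ± 0.00605 (SD, n = 3) in control mice, 1.30 ± 0.138 in LPS mice and 0.839 ± 0.113 in LPS-MIC-1 mice, so that Flt1 exceeded Kdr in all 3 LPS-MIC-1 libraries and in no other. The ratio of Vegfa to Kdr was 12.5 ± 0.432 in control mice, 16.7 ± 2.10 in LPS mice and 12.7 ± 0.865 in LPS-MIC-1 mice, with control and LPS-MIC-1 overlapping.

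Eng also stepped down in each group. It read 22.6, 21.7 and 20.4 FPKM in control, 16.0, 15.6 and 15.9 in LPS and 9.23, 8.98 and 7.42 in LPS-MIC-1, without overlap. The changes were -0.44 with LPS (SE 0.0834, limma adjusted p = 0.00951) and -0.89 between LPS and LPS-MIC-1 (adjusted p = 3.6e-05), and from control to LPS-MIC-1 the mean fell by 60.4%. Vwf was too low to be tested with the other members, its mean over the 9 libraries being 0.789 FPKM. It read 1.05, 1.52 and 0.983 FPKM in control, 0.907, 0.729 and 0.807 in LPS and 0.309, 0.467 and 0.329 in LPS-MIC-1, again in 3 groups that did not overlap. With no filter on level, Vwf changed by -0.47 with LPS (limma adjusted p = 0.281) and by -0.98 between LPS and LPS-MIC-1 (adjusted p = 0.00949).

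The junction genes and Tie1 behaved differently in LPS-MIC-1. Cdh5 was the most abundant endothelial member in control at 32.1, 31.5 and 29.95 FPKM, against 19.6, 18.9 and 18.1 in LPS and 21.995, 23.8 and 20.1 in LPS-MIC-1. All LPS libraries were below all control libraries (-0.72, SE 0.0661, limma adjusted p = 0.000296), and LPS-MIC-1 lay slightly above LPS but remained below control. The step from LPS to LPS-MIC-1 was 0.21 (limma adjusted p = 0.023). It no longer passed with quantile normalization (0.10, adjusted p = 0.207) and without LPS replicate 2 or 3 or LPS-MIC-1 replicate 1 or 2, at an adjusted p of 0.0559, 0.076, 0.0566 and 0.0665.

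Pecam1 read 8.91, 11.004 and 12.4 FPKM in control, 5.39, 5.49 and 6.83 in LPS and 8.34, 6.91 and 6.76 in LPS-MIC-1. Control was above LPS in every library, with the largest change of the 8 tested members under LPS (-0.85, SE 0.146, limma adjusted p = 0.00595), but LPS and LPS-MIC-1 overlapped. Their difference was 0.31 with a 95% interval from -0.0235 to 0.646 (adjusted p = 0.102), and it passed without LPS replicate 3 (0.42, limma adjusted p = 0.0492).

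Tie1 read 13.9, 14.3 and 15.0 FPKM in control, 10.2, 8.74 and 9.09 in LPS and 15.1, 14.6 and 13.8 in LPS-MIC-1. It was lower in LPS than in both other groups, which overlapped. Tie1 fell by 0.62 with LPS (SE 0.0669, limma adjusted p = 0.000605) and rose by 0.63 from LPS to LPS-MIC-1 (adjusted p = 7.58e-05), while LPS-MIC-1 and control differed by 0.01 with a 95% interval from -0.146 to 0.161. Tek, the angiopoietin receptor that pairs with Tie1, was listed at 0 in control replicate 2 and LPS replicates 1 and 3, and read 1.43 and 2.05 FPKM in the other control libraries, 1.04 in LPS replicate 2 and 0.304, 0.880 and 0.776 in LPS-MIC-1. Values this scattered gave no usable order of the groups for Tek.

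Esam was the member that rose most in LPS-MIC-1. It read 19.4, 17.4 and 16.0 FPKM in control, 11.1, 13.8 and 11.7 in LPS and 22.4, 30.7 and 23.8 in LPS-MIC-1, in 3 groups that did not overlap. LPS-MIC-1 exceeded LPS by 1.06 on the log2 scale (SE 0.134, limma adjusted p = 0.000212) and control by 0.53 (adjusted p = 0.00907). The fall with LPS (-0.53, limma adjusted p = 0.0318) no longer passed without control replicate 1 or 2 or LPS replicate 1 or 3, at an adjusted p between 0.0799 and 0.103.

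In control muscle the levels ranked Vegfa, Cdh5, Eng, Esam, Tie1, Pecam1, Kdr and Flt1, each with libraries above all those of the next gene, and then Vwf and Tek, which overlapped. The order was the same in LPS, except that Pecam1 and Kdr also overlapped. In LPS-MIC-1 it changed to Vegfa, Esam, Cdh5, Tie1, Eng, Pecam1, Flt1, Kdr, Tek and Vwf, with overlap between Esam and Cdh5, between Eng and Pecam1 and between Tek and Vwf. Esam thus moved up past Eng and Cdh5, the latter within the spread, and Kdr moved below Flt1.

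Counted together, all 8 tested members were lower in LPS than in control with an adjusted p under 0.05, compared with 7.48% of all genes tested, and 0 of them moved over 2-fold, compared with 0.591%. The 8 also did not overlap between the groups, which held for 17.7% of all genes in that direction. No tested member was higher in LPS, where 8.25% of all genes passed as higher and 0.654% were called. The median change of the 8 was -0.58, against 0.01 over all genes tested. Of these 8, 7 are endothelial genes, and Vegfa changed least.

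From LPS to LPS-MIC-1 the members split. Vegfa, Kdr, Eng and Flt1 were lower, against 28.2% of all genes, and Tie1, Esam and Cdh5 were higher, against 28.3%. Of the 8 tested members, 7 therefore passed in a comparison in which most genes did, and only Vegfa (lower, background 5.44%) and Esam (higher, background 9.67%) moved over 2-fold. The same 4 and 3 members were those without overlap between LPS and LPS-MIC-1, in directions in which 31.7% and 32.5% of all genes had none. Against control, 6 members were lower in LPS-MIC-1 (background 28.5%), Esam was higher (background 30%) and Tie1 did not pass. Vegfa (-1.57, limma adjusted p = 5.03e-09), Kdr (-1.56, adjusted p = 5.1e-06) and Eng (-1.33, adjusted p = 3.05e-06) were the 3 that moved over 2-fold before the scaling to endothelial genes described below, with 6.12% of all genes called lower and 9.33% higher. The 6 lower members and Esam did not overlap with control, as for 31.1% and 33.4% of all genes. The smallest p an exact permutation test of 3 against 3 libraries allows is 0.1, which every gene without overlap reached.

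**Figure D2:**
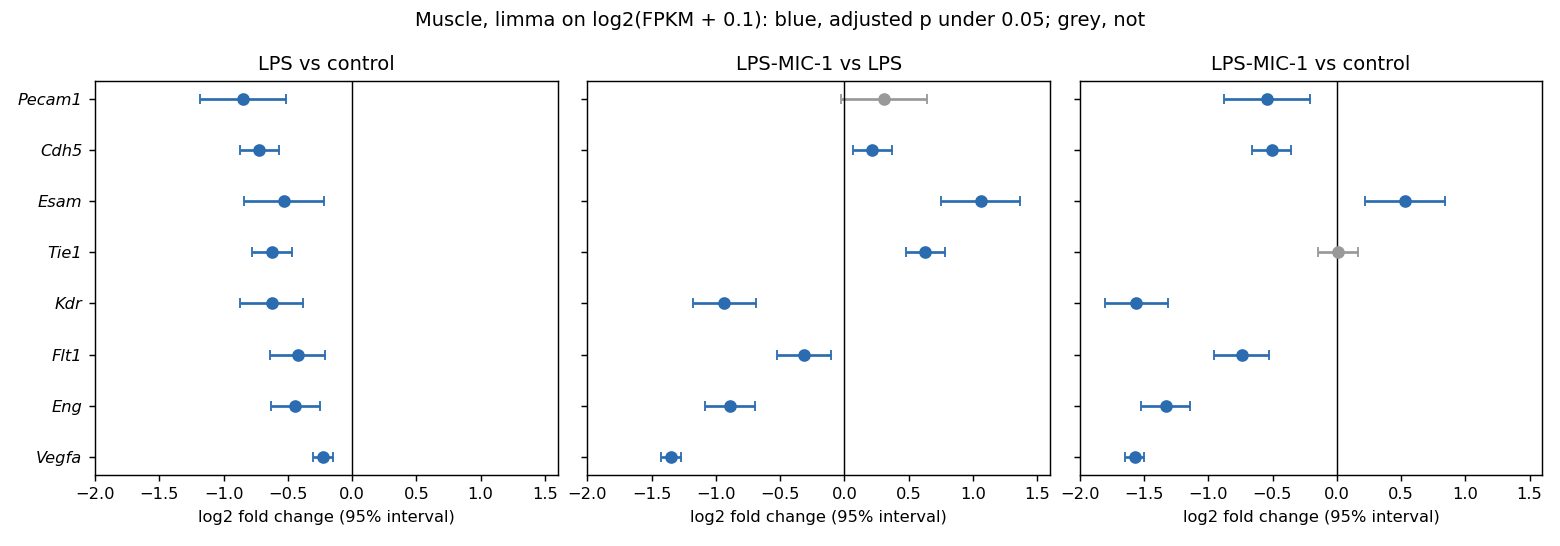
Log2 fold change of the 8 tested members in muscle (horizontal axis; points, limma estimate; bars, 95% interval) for LPS against control, LPS-MIC-1 against LPS and LPS-MIC-1 against control. All 8 lie below 0 in the first panel, while in the second Esam and Tie1 lie above 0 and Vegfa, Kdr, Eng and Flt1 below.

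The members were also set against Cdh5 within each library, a description of proportions with no test. The ratio of Kdr to Cdh5 was 0.251 ± 0.00884 (SD, n = 3) in control mice, 0.269 ± 0.0339 in LPS mice and 0.118 ± 0.00601 in LPS-MIC-1 mice, and that of Eng was 0.692 ± 0.0121, 0.840 ± 0.0317 and 0.389 ± 0.0270. For both, control and LPS lay far above LPS-MIC-1. The ratio of Esam to Cdh5 went the other way, from 0.564 ± 0.0350 in control and 0.647 ± 0.0844 in LPS to 1.17 ± 0.137 in LPS-MIC-1, and that of Tie1 was 0.463 ± 0.0334, 0.494 ± 0.0285 and 0.662 ± 0.0437. Pecam1 held nearly the same ratio to Cdh5 in all groups (0.347 ± 0.0678, 0.314 ± 0.0547 and 0.336 ± 0.0446), and its groups overlapped. The members thus did not keep their proportions in LPS-MIC-1, and the ratio of Esam to Eng was 0.816 ± 0.0363 in control mice, 0.771 ± 0.103 in LPS mice and 3.02 ± 0.523 in LPS-MIC-1 mice.

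**Figure D3:**
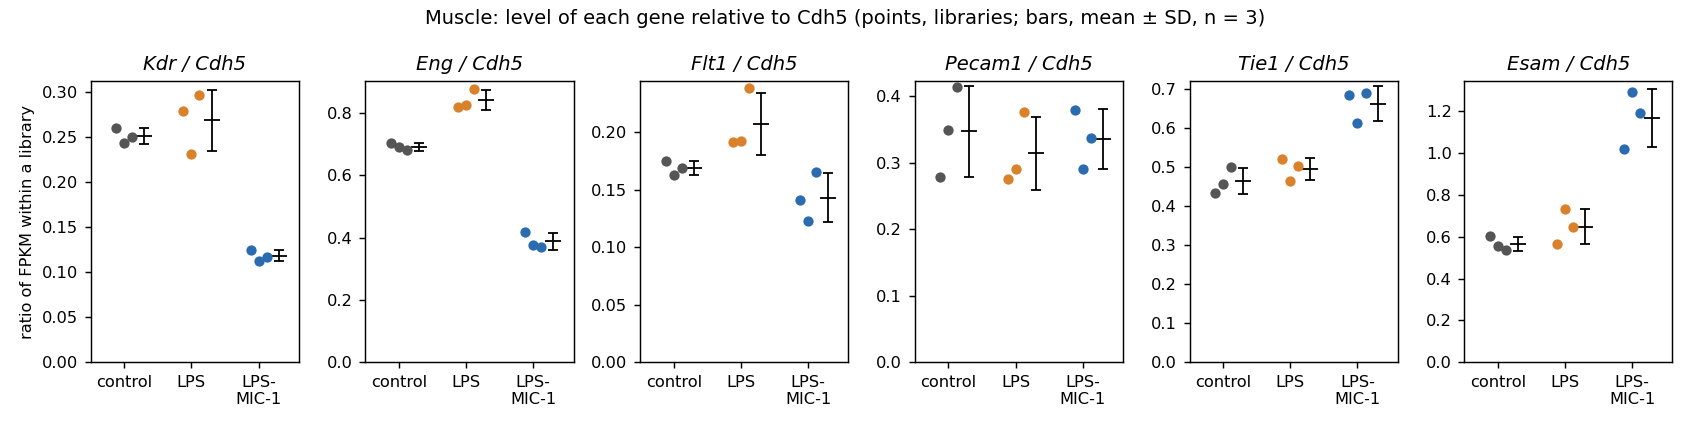
FPKM of Kdr, Eng, Flt1, Pecam1, Tie1 and Esam divided by that of Cdh5 in the same muscle library (vertical axes, from 0), with points for libraries and bars for the mean ± SD of 3. Kdr and Eng drop in LPS-MIC-1 to 0.118 and 0.389, Tie1 and Esam climb to 0.662 and 1.17, and Pecam1 overlaps across the groups.

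Other endothelial genes also lay lower with LPS and split in LPS-MIC-1. Of 25 further endothelial genes, 19 were tested, and 15 of them were lower in LPS than in control while 0 were higher. Over all genes 7.48% passed as lower and 8.25% as higher. The median of the 19 was -0.64. Each library was also scaled to the median of these 19 genes, which had themselves fallen with LPS about as much as the members. Much of the members' fall was thus removed by construction, and what remains describes them relative to those genes. No endothelial member then passed for LPS against control. Pecam1 changed by -0.12, and Cdh5, Kdr, Tie1, Esam, Eng and Flt1 by between 0.01 and 0.30, with limma adjusted p-values from 0.153 to 0.971. Vegfa, which fell less than the endothelial genes, stood at 0.50 on that scale (limma adjusted p = 0.0146). The scaling moved the median change of all genes to 0.73, so 0.50 is no sign of a rise. Between LPS and LPS-MIC-1, 10 of the 19 were lower and 5 higher, with a median of -0.37. Over all genes 28.2% passed as lower and 28.3% as higher, so the 5 were near the general share. The same shares apply to the counts of the further lists below in this comparison. The scaling to endothelial genes was unstable there, since the libraries' medians lay between 1.87 and 2.49 on the log2 scale in LPS-MIC-1 but between 2.63 and 2.64 in LPS. On it Kdr (-0.46, limma adjusted p = 0.0666) and Eng (-0.41, adjusted p = 0.0724) did not pass, and Flt1 stood at 0.16 (adjusted p = 0.511). The median of all genes stood at 0.469 there, above Kdr, Eng and Flt1. Between LPS-MIC-1 and control, the same scaling left Vegfa at -0.37 (limma adjusted p = 0.047), Kdr at -0.35 (adjusted p = 0.0993) and Eng at -0.13 (adjusted p = 0.509). Tie1 stood at 1.21 (limma adjusted p = 6.46e-05), but the median of all genes stood at 1.215 on that scale. The value for Tie1 was thus that of a typical gene there, and Vegfa, Kdr and Eng lay below that median.

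Between LPS and LPS-MIC-1, 6 of the 19 further endothelial genes tested were called lower and 3 higher (5.44% and 9.67% of all genes). The 3 with the largest of these changes show how wide the split was. Cldn5, the tight junction protein claudin-5, fell from 10.2 ± 0.583 FPKM in control mice to 5.64 ± 0.615 with LPS and stood at 31.5 ± 2.47 in LPS-MIC-1 (2.46 against LPS, limma adjusted p = 1.55e-07), so its ratio to Cdh5 went from 0.30 ± 0.0434 in LPS to 1.44 ± 0.0410. Rasip1, which helps endothelial tubes form a lumen, also rose, from 5.84 to 19.5 FPKM (1.72, adjusted p = 2.07e-06 with limma). Sox18, a transcription factor of endothelial development, fell from 14.1 to 3.38 FPKM (-2.03, limma adjusted p = 1.29e-06).

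**Figure D4:**
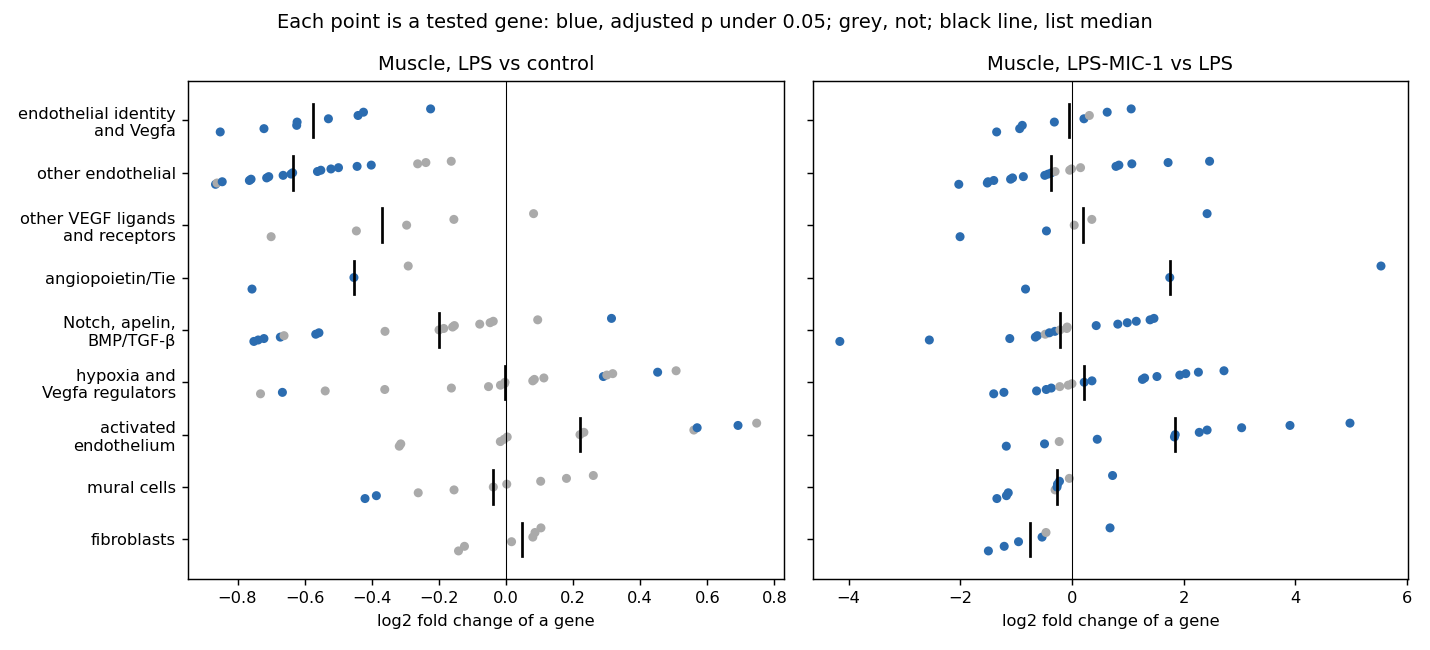
Log2 fold change in muscle of every tested gene of 9 lists (points, blue where the limma adjusted p is under 0.05; black lines, list medians) for LPS against control and LPS-MIC-1 against LPS. With LPS the endothelial genes and the members lie below 0, with medians of -0.64 and -0.58, and in LPS-MIC-1 both lists spread to either side; Pgf, listed at 0 in all LPS libraries, is left out of the points.

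Among the other VEGF ligands and receptors, 0 of 6 tested genes passed in LPS against control (limma; 3 at an unadjusted p under 0.05). In LPS-MIC-1 against LPS, 2 rose and 2 fell, so the VEGF ligands did not move together. Figf (VEGF-D), which binds the lymphatic receptor Flt4, read 3.59, 4.36 and 3.01 FPKM in control, 2.34, 2.95 and 2.62 in LPS and 14.3, 14.2 and 15.0 in LPS-MIC-1 (2.42 against LPS, limma adjusted p = 1.54e-06). Pgf, the placental growth factor that binds Flt1 but not Kdr, was listed at 0 in the 3 LPS libraries and in control replicate 1, at 0.207 and 0.209 FPKM in the other control libraries, and at 16.4, 16.4 and 13.7 in LPS-MIC-1. Both ligands were thus high in all LPS-MIC-1 libraries and low in all others.

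Vegfb, a Flt1 ligand and the most abundant of the family in muscle, read 181 ± 3.13 FPKM in control mice, 191 ± 5.78 in LPS mice and 139 ± 8.70 in LPS-MIC-1 mice (-0.46 against LPS, adjusted p = 5.78e-05 with limma). This gene was named after its values were seen. The ratio of Vegfa to Vegfb went from 0.542 ± 0.00825 in control mice to 0.438 ± 0.0204 with LPS and 0.236 ± 0.0119 with LPS-MIC-1, and that of Vegfa to Figf from 27.4 ± 4.47 and 32.1 ± 4.16 to 2.27 ± 0.10. Vegfa therefore exceeded Figf and Pgf in every muscle library, and its lead over Pgf in LPS-MIC-1 was 2.02- to 2.35-fold. Nrp1, the co-receptor of VEGF-A with Kdr, fell from 4.34 FPKM in LPS to 1.07 in LPS-MIC-1 (-2.004, limma adjusted p = 0.000553).

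**Figure D5:**
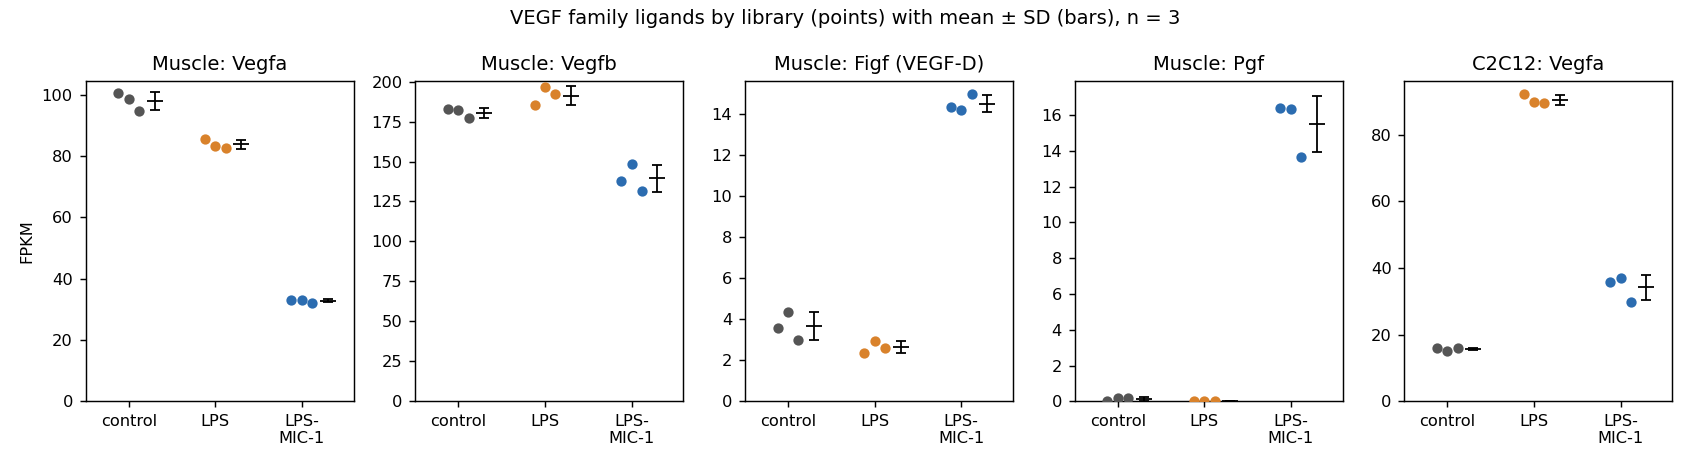
FPKM (vertical axes, from 0) of Vegfa, Vegfb, Figf and Pgf in muscle and of Vegfa in the cells, with points for libraries and bars for the mean ± SD of 3. In muscle Vegfa is lowest in LPS-MIC-1, where Figf and Pgf are highest; in the cells Vegfa is highest in LPS, at a mean of 90.4.

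Of 5 genes of the angiopoietin family and of Tie signalling, 3 were tested. Angpt2, the antagonist that endothelial cells release, had 1.20, 0.658 and 2.44 FPKM as means of control, LPS and LPS-MIC-1, a rise of 1.75 from LPS to LPS-MIC-1 (limma adjusted p = 0.000164). Angptl4, a related secreted protein that inhibits lipoprotein lipase and is not a Tie ligand, rose from 0.672 to 35.5 FPKM (5.53, adjusted p = 5.58e-08 with limma). In LPS against control, 2 of the 3 were lower (7.48% of all genes), but only 1 when LPS-MIC-1 replicate 3 was left out of the fit.

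Eng takes part in BMP/TGF-β signalling, and of 20 genes of the Notch, apelin and BMP/TGF-β pathways 17 were tested. With LPS 6 were lower and 1 higher (7.48% and 8.25% of all genes). In LPS-MIC-1 against LPS 7 were lower and 6 higher (28.2% and 28.3% of all genes). Aplnr, the endothelial receptor for apelin, went from 5.83 ± 0.285 FPKM in control mice to 3.49 ± 0.0949 with LPS and 0.102 ± 0.0178 with LPS-MIC-1 (-4.16 against LPS, limma adjusted p = 4.58e-08). Hey1, a Notch target, fell from 2.23 to 0.296 FPKM (-2.55, adjusted p = 3.55e-06 with limma), whereas Notch4, the Notch receptor of endothelium, rose from 2.13 to 6.08 (1.47, limma adjusted p = 2.34e-06).

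Vegfa is a target of the hypoxia response, so 18 genes of that response and other regulators of Vegfa were set beside it, of which 17 were tested. LPS gave 2 that rose and 1 that fell (8.25% and 7.48% of all genes). Between LPS and LPS-MIC-1, where Vegfa fell, 9 rose and 5 fell (28.3% and 28.2% of all genes). Adm, which encodes adrenomedullin, rose from 1.21 to 8.52 FPKM (2.72, limma adjusted p = 9.14e-06), Ndrg1 from 3.86 to 18.9 (2.26, adjusted p = 3.87e-08) and Slc2a1, the glucose transporter GLUT1, from 3.04 to 12.8 (2.04, adjusted p = 2.71e-06). These 3 moved opposite to Vegfa in the same libraries, but other hypoxia targets of the list, named after their values were seen, fell with it. Ankrd37 fell from 3.899 to 1.45 FPKM (-1.40, limma adjusted p = 0.00118), and the glycolytic genes Pgk1 and Ldha fell from 881 to 568 and from 2793 to 2029 (-0.63 and -0.46, adjusted p = 2.74e-07 and 4.72e-06). The hypoxia genes thus did not move together.

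Genes of activated endothelium, which LPS is known to raise, gave 2 higher and 0 lower among 11 tested in LPS against control, with a median of 0.22 and no change over 2-fold. Over all genes 8.25% passed as higher and 7.48% as lower there, and 0.654% and 0.591% were called. In LPS-MIC-1 against LPS, 8 were higher and 2 lower (28.3% and 28.2% of all genes), with a median of 1.85. Icam1, the adhesion molecule for leukocytes, read 0.749 ± 0.162 FPKM with LPS and 6.82 ± 0.780 with LPS-MIC-1 (3.04, limma adjusted p = 1.78e-06). Upp1, a uridine phosphorylase, rose as well, from 0.298 to 5.78 FPKM (3.90, limma adjusted p = 9.94e-05). Sele, the selectin of activated endothelium, was listed at 0 in the control and LPS libraries and did not exceed 0.0265 FPKM in LPS-MIC-1.

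Other cell types of muscle moved in the same libraries, and their part in the members' levels was not tested. Of 9 tested genes of mural cells, which wrap the vessels, 2 were lower with LPS (7.48% of all genes). In LPS-MIC-1 against LPS, 6 were lower and 1 higher (28.2% and 28.3% of all genes). Notch3, Acta2 and Pdgfb (the last made by endothelium to recruit these cells) fell by 1.34, 1.17 and 1.14 between LPS and LPS-MIC-1 (limma adjusted p = 6.58e-06, 2.74e-06 and 1.18e-05), while Rgs5, the most abundant of the list, stood at 54.8, 54.9 and 45.7 FPKM and Abcc9 at 22.7, 25.7 and 21.5. The summed mural list lay within 142 to 144 FPKM for control libraries, 136 to 139 for LPS and 101 to 113 for LPS-MIC-1. Rgs5 and Abcc9 weighed most in that sum, so it hides the larger falls of Notch3, Acta2 and Pdgfb.

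Among 6 fibroblast genes, 0 passed with LPS by limma (0 at an unadjusted p under 0.05). In LPS-MIC-1 against LPS, 4 fell and 1 rose (28.2% and 28.3% of all genes). Col1a1 and Col3a1 fell from 12.7 to 4.44 and from 16.9 to 7.23 FPKM, and Dcn rose from 74.5 to 119.8 (limma adjusted p = 1.14e-07, 5.67e-07 and 9.61e-06). The summed fibroblast list lay within 117 to 123 FPKM for control libraries, 123 to 124 for LPS and 134 to 152 for LPS-MIC-1. Dcn weighed most in that sum, so it hides the falls of Col1a1 and Col3a1. The list's median lay within 11.5 to 11.9 FPKM for control libraries, 11.9 to 12.3 for LPS and 4.90 to 6.11 for LPS-MIC-1. Of 2 tested lymphatic genes, Ccl21a fell from 3.07 to 0.745 FPKM in LPS-MIC-1 against LPS (limma adjusted p = 0.00679), Pdpn did not pass, and Lyve1 (0.547, 0.490 and 0.489 FPKM in control, LPS and LPS-MIC-1) was too low to be tested.

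Of 5 tested macrophage and leukocyte genes, 0 passed with LPS by limma (0 at an unadjusted p under 0.05) and 2, S100a8 and Cd14, were higher in LPS-MIC-1. Cd14 read 3.39 and 3.74 FPKM in LPS-MIC-1 replicates 1 and 2 and 15.5 in replicate 3, against 0.480 as the LPS mean, and S100a8 read 7.25, 7.47 and 7.41 against 0.491. Ptprc, the general leukocyte marker, had means of 0.0820, 0 and 0.181 FPKM in control, LPS and LPS-MIC-1. Among 4 tested genes of platelets and red cells, which remain in the vessels of sampled tissue, 2 were higher with LPS (8.25% of all genes). Hbb-b1 went from 55.8 to 70.3 FPKM and Alas2 from 3.51 to 4.44, and Pf4 read 2.82 and 4.21 without passing. Only 1 gene of this list passed as higher when LPS-MIC-1 replicate 3 was left out of the fit, and any link to the members' levels was not tested.

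Fibre genes were shifted too. Of 9, 4 were higher and 2 lower with LPS (8.25% and 7.48% of all genes), where Myh1 went from 79.1 to 306 FPKM. Between LPS and LPS-MIC-1, 3 rose and 5 fell (28.3% and 28.2% of all genes). There Acta1 fell from 53508 to 37249 FPKM, Ckm from 35559 to 28586 and Tnni2 from 24278 to 20513. Of 4 tested myoblast genes, Myog rose over 2-fold with LPS, from 6.54 to 16.5 FPKM, and Myod1 fell from 33.9 to 4.72 in LPS-MIC-1 against LPS, with Cdh15 at 9.52, 8.98 and 7.15 FPKM in the 3 groups.

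For each of the 10 members, the genes with the most similar course over the 9 muscle libraries were sought among 5464 genes with a mean over 5 FPKM. The measure was the root mean square difference of log2 values after each gene was centred. The 3 nearest are given for 4 members, Vegfa, Kdr, Vwf and Cdh5, and single ones for some others. Nearest to Vegfa were Mast4 (0.0567), Ccdc88c (0.0721) and Tmem150a (0.0763), the last at 97.1, 80.0 and 28.8 FPKM in control, LPS and LPS-MIC-1, close to the levels of Vegfa itself. Nearest to Kdr were Pisd-ps1 (0.119), Prkag3 (0.119), which encodes a muscle subunit of AMP-activated kinase, and Rasa4 (0.123). Of these, Pisd-ps1 (0.177) and Prkag3 (0.179) were also among the 3 nearest to Vwf, after Tuba1a (0.173). Nearest to Cdh5 were BC018507 (0.0864), the endothelial gene Cd93 (0.0922) and Timp3 (0.104), a metalloproteinase inhibitor. Endothelial genes were also near to other members: Icam2 to Eng (0.0645), the sphingosine phosphate receptor S1pr1 to Tie1 (0.0889) and Cd93 to Pecam1 (0.163), all 3 named after their values were seen. Genes off the endothelial lists were as near to some: the next to Tie1 stood at 0.0898, and the nearest to Pecam1 at 0.142. None of the 3 nearest to Flt1 or to Esam was on those lists. The 9 libraries behind these distances fall into the 3 groups, and no test was made.

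In the cells, the labels and the markers did not match. C2C12 is a myoblast line, but the summed level of 6 myoblast genes was 0.0711 to 0.186 FPKM in the control libraries and 0.0848 to 0.479 in the LPS libraries, and 250.2 to 289 in the LPS-MIC-1 libraries. Macrophage and leukocyte genes ran the other way, at 6225 to 6348 FPKM, 4323 to 4443 and 79.6 to 203, with Lyz2 at means of 4694, 1838 and 17.1 and Csf1r, the macrophage growth factor receptor, at 724, 177 and 1.96. The libraries labelled control and LPS thus carried macrophage and not myoblast genes, and any comparison with the libraries labelled LPS-MIC-1 cannot be told apart from that difference. Depth relative to control replicate 1 was between 0.466, in LPS-MIC-1 replicate 3, and 1.03.

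Of the 10 genes, Vegfa, Eng and Flt1 were tested in the cells, where a gene passed with a limma adjusted p under 0.001 over 10877 genes. Vegfa read 15.9, 15.3 and 16.0 FPKM in the libraries labelled control, 92.2, 89.8 and 89.3 in those labelled LPS and 35.8, 37.0 and 29.8 in those labelled LPS-MIC-1. The groups did not overlap, and LPS was the highest, unlike in muscle, where LPS lay between the other groups. LPS and control, both macrophage-marked, differed by 2.52 (SE 0.0782, limma adjusted p = 1.15e-07). Vegfa was the 1 member of 3 called there, where 10.9% of all genes were called higher and 10% lower (18.6% and 19.3% passed, and 39.4% and 40.1% had no overlap). LPS-MIC-1 differed from LPS by -1.41 (limma adjusted p = 5.69e-07) and from control by 1.11 (adjusted p = 2.78e-06).

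Eng read 5.65, 6.08 and 5.44 FPKM in control, 6.91, 6.36 and 6.40 in LPS and 1.07, 1.16 and 1.16 in LPS-MIC-1, and Flt1 read 1.70, 1.88 and 1.73, then 1.71, 1.43 and 1.36, then 0.207, 0.329 and 0.288. Both genes are known outside endothelium in cells of the monocyte lineage. Neither passed between control and LPS (0.19 and -0.23, limma adjusted p = 0.104 and 0.248), and both had lower levels under LPS-MIC-1 than under LPS (-2.44 and -2.10, adjusted p = 6.81e-08 and 4.64e-06), in a comparison that called 25.6% of all genes lower and 24.3% higher (33.7% and 32.8% passed, and 43.7% and 41.8% had no overlap). Against control, Vegfa was called higher and Eng and Flt1 lower in LPS-MIC-1, where 21.1% of all genes were called higher and 22.1% lower (29.9% and 30.5% passed, and 40.3% and 42.7% had no overlap).

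The other members were near 0 in the cells. Tek and Tie1 were listed at 0 in all 9 libraries, Pecam1, Cdh5, Kdr and Esam did not exceed 0.416 FPKM in any, and Vwf had means of 0.301, 0.684 and 0.0953 FPKM. Cldn5 was also listed at 0 in all 9. Apart from Eng, Flt1 and Vwf the endothelial members were thus nearly without transcript there, but other VEGF ligands were present. Pgf was 0.0350 ± 0.0606 FPKM in control cells, 59.3 ± 0.805 in LPS cells and 5.42 ± 2.51 in LPS-MIC-1 cells, and Figf was listed at 0 in control, at 0.0339 ± 0.0587 in LPS and at 18.4 ± 3.02 in LPS-MIC-1. Pgf was highest with Vegfa in the libraries labelled LPS. Figf was high only in the LPS-MIC-1 cell libraries, which alone carried myoblast genes, so its difference cannot be told apart from that of the cells.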

How the data were processed

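Total RNA of 9 gastrocnemius and 9 C2C12 libraries had been sequenced. The authors pseudoaligned reads with kallisto and summarised them per gene with tximport. They deposited FPKM values for 21401 symbols, and the submitters' processing notes name the build mm9. The authors' own DESeq2 tables for 6 comparisons, with base means, fold changes, standard errors and p-values, were not used, nor were 11 unnamed columns beside the muscle values, 9 of them numeric. Depth per library is not given in the sources used here, and so FPKM values near 0 rest on unknown, few reads.

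Groups were taken from the sample titles. In R 4.3.3, limma 3.58.1 was fitted to log2(FPKM + 0.1) in each experiment, with 3 group means over 9 libraries, eBayes with a trend and a filter of mean FPKM over 1 (9475 genes in muscle, 10877 in the cells). Fold changes on this scale understate those of low genes. Thresholds on adjusted p (0.05 in muscle, 0.001 in cells) and over 2-fold are ones the study names, although for muscle it gives the 2-fold limit with a p not said to be adjusted. The 10 genes, 13 further lists and tests were chosen with earlier results of these data known, and no list was tested as a set. Genes named besides the members are the 3 largest called in LPS-MIC-1 against LPS in each list, any called in LPS against control, the 3 most abundant of each list of another cell type and the 3 nearest to Vegfa, Kdr, Cdh5 and Vwf. Genes outside this rule (Erg, Sele, Vegfb, Ptprb, Ptprc, Csf1r, Lcn2, Saa3, Ankrd37, Pgk1, Ldha, Icam2, S1pr1) were chosen after their values were seen. A gene that the rule names is not reported here. On simulated data with 200 changed genes, the muscle comparison of LPS with control (9475 genes) recovered 83% of changes of 1.5 and 93% of changes of 3 on the log2 scale, with 2 wrong calls. The muscle comparison of LPS-MIC-1 with LPS had 5 wrong calls, and LPS against control in the cells recovered 61% of changes of 1.5. Every member changed by less than 1.5 with LPS in muscle, and recovery of such smaller changes was not simulated. Alternatives were another pseudocount, filter, scaling, variance model, set of groups and replicate block, and leaving out each library. Figures were drawn with matplotlib 3.10.9.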

Additional observations from a re-analysis of the deposited data

How the results depend on the processing

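Limits. FPKM gives no counts, so no counting error could be set on values near 0, and Tek and Vwf rest on such values. With 3 libraries a group, single libraries decided several small steps, as given above, and the cause was not tested. Replicate numbers did not pair the libraries: deviations of same-numbered libraries correlated between -0.054 and 0.0823 in muscle and between -0.0757 and 0.0573 in the cells. With the replicate number as a block, the genes called were 63 higher and 52 lower (LPS against control in muscle), against 62 and 56 without it, and no member changed its side of the threshold, whereas Angpt2 and Ccdc88c in that comparison and Pf4 in LPS-MIC-1 against LPS no longer passed. List counts without LPS-MIC-1 replicate 3, an alternative chosen after seeing the data, changed the angiopoietin count as given above, and from LPS to LPS-MIC-1 hypoxia genes that rose went from 9 to 8 and mural genes that fell from 6 to 5, platelet and red cell genes that fell from 2 to 1 and macrophage genes that fell from 0 to 1; platelet and red cell genes higher in LPS than in control also went from 2 to 1.

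In muscle, 420 of 453 alternative results for members kept their side of the threshold and, where the change passed, its direction, 19 no longer passed, 3 newly passed and 11 that had passed or then passed changed sign. Tie1 in LPS-MIC-1 against control (0.01, not passing) also changed sign without passing in 4 alternatives, to -0.12 with quantile normalization. The 11 came from scaling to the other endothelial genes, which gives those genes the same median in every library. That scaling moved the median change of all genes to 0.733 (LPS against control), 0.469 (LPS-MIC-1 against LPS) and 1.215 (LPS-MIC-1 against control). The changes were then, for LPS against control, 0.00624 for Cdh5, 0.1037 for Kdr, 0.3027 for Flt1, 0.1049 for Tie1, 0.2865 for Eng, 0.1982 for Esam and 0.5027 for Vegfa; for LPS-MIC-1 against LPS, 0.1624 for Flt1; and for LPS-MIC-1 against control, 0.6651 for Pecam1, 0.6988 for Cdh5 and 0.4651 for Flt1. Quantile normalization put the median change of all genes at -0.12 in LPS-MIC-1 against LPS, compared with -0.01 without it, and there it called 781 higher and 667 lower, compared with 916 and 515, and with it Tnni2 stood at 0.02311, 0.02311 and 0.04622 in the 3 comparisons. Lyz2 in LPS-MIC-1 ranged from -0.9595 (without replicate 3) to 1.182 against LPS and from -0.5889 to 1.552 against control.

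Counts of genes called in muscle depended on low values. A pseudocount of 1 gave 37 higher and 34 lower for LPS against control, 275 lower for LPS-MIC-1 against LPS and 341 lower against control. No filter gave 88, 798 and 915 lower. Requiring a mean over 5 FPKM gave 31 higher and 26 lower, then 452 and 204, then 462 and 215, and in the cells 1533 higher in LPS-MIC-1 than in control, compared with 2300. All 156 alternative values of Vegfa, Eng and Flt1 in the cells kept direction and side of the threshold.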
